A study of Danio rerio with 14 samples.

Results

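The H and M libraries of transgenic zebrafish intestine were compared across all genes. The 3 H libraries (replicates 13, 14 and 16) and the 3 M libraries (replicates 9, 10 and 11) were chosen by their genotype label and by the letter that ends their title, and they are 6 of the 14 libraries of the series. The study sequenced poly-A RNA from the intestine of transgenic and wild-type fish. All 6 libraries carry the transgene Tg(Xla.Eef1a1:Cau.Asip1)iim04, a name that by usual practice stands for the Asip1 gene of goldfish, coding for agouti signalling protein, driven by the frog Eef1a1 promoter, which is active in most cell types. Because H and M share the transgene, their difference is not a test of it. The labels do not explain the letters, which may mark sex, and no sex was assumed. The other 8 libraries, from fish labelled Tubingen and taken here as wild-type, comprise 4 H (replicates 5, 6, 7 and 8) and 4 M libraries (replicates 1, 2, 3 and 4) and are used only where their values are set beside the transgenic ones. Age is not given. The labels do not say whether each library came from a separate fish or from a pool, so the p-values rest on sample-to-sample spread that may be technical.

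Vitellogenins are the large lipid-carrying precursors of egg yolk. In fish that lay eggs they are made mainly by hepatocytes, where estrogen acting through its nuclear receptors switches their genes on, and they travel in the blood to the ovary. The intestine absorbs nutrients through brush-border enterocytes, takes up protein through lysosome-rich enterocytes, and is moved by smooth muscle under the control of enteric neurons. The zebrafish liver and pancreas lie against it, so that their transcripts can enter a dissected sample. In bulk RNA, fewer cells of a type and less RNA per cell cannot be told apart.

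Total counts ranged from 11792225 to 14091791 in the H libraries and from 11990694 to 12799311 in the M libraries. Endogenous ASIP had 4 counts in each H library and 4, 0 and 0 counts in the M libraries, and the goldfish transgene was not analysed here. Brush-border genes took 1.66% to 4.0% of counts in H and 3.24% to 3.85% in M, so every library held absorptive epithelium. H replicate 14 stood apart from the other H libraries. Its exocrine pancreas genes took 0.328% of counts, against 1.98% and 2.56% in H 16 and H 13 and 3.42% to 4.32% in the M libraries, and its brush-border share was the highest of the 6. On the first principal component of the 500 most variable genes (43.8% of the variance), H 14 and M 11 lay at one end and H 13 and H 16 at the other. The second component (29.7%) had all H libraries on one side and all M libraries on the other. List medians that H 14 moved by much are given with and without it.

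H libraries had far more vitellogenin mRNA than M libraries. Of 16765 genes tested with edgeR's quasi-likelihood test, 5 rose in H at an adjusted p (Benjamini-Hochberg) under 0.05, which is 0.0298% of the genes tested, and 0, or 0.0%, fell. The 5 were the vitellogenin genes vtg2, vtg3 and vtg4, the unnamed gene ENSDARG00000093425, whose row stands among the vitellogenin rows of the deposited table, and nots. The last of these codes for nothepsin, an aspartic protease known from fish liver. At an unadjusted p under 0.05, 260 genes (1.55%) were higher and 405 (2.42%) lower in H. All 3 H libraries lay above all 3 M libraries in 675 genes (4.03%) and below them in 791 (4.72%). DESeq2, run on the same counts, called 29 genes higher (0.173%) and 17 lower (0.102%) in H of the 16744 it tested. The 29 include the 5 edgeR calls, and H and M did not overlap in 25 of the 29 and 16 of the 17.

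**Figure D1:**
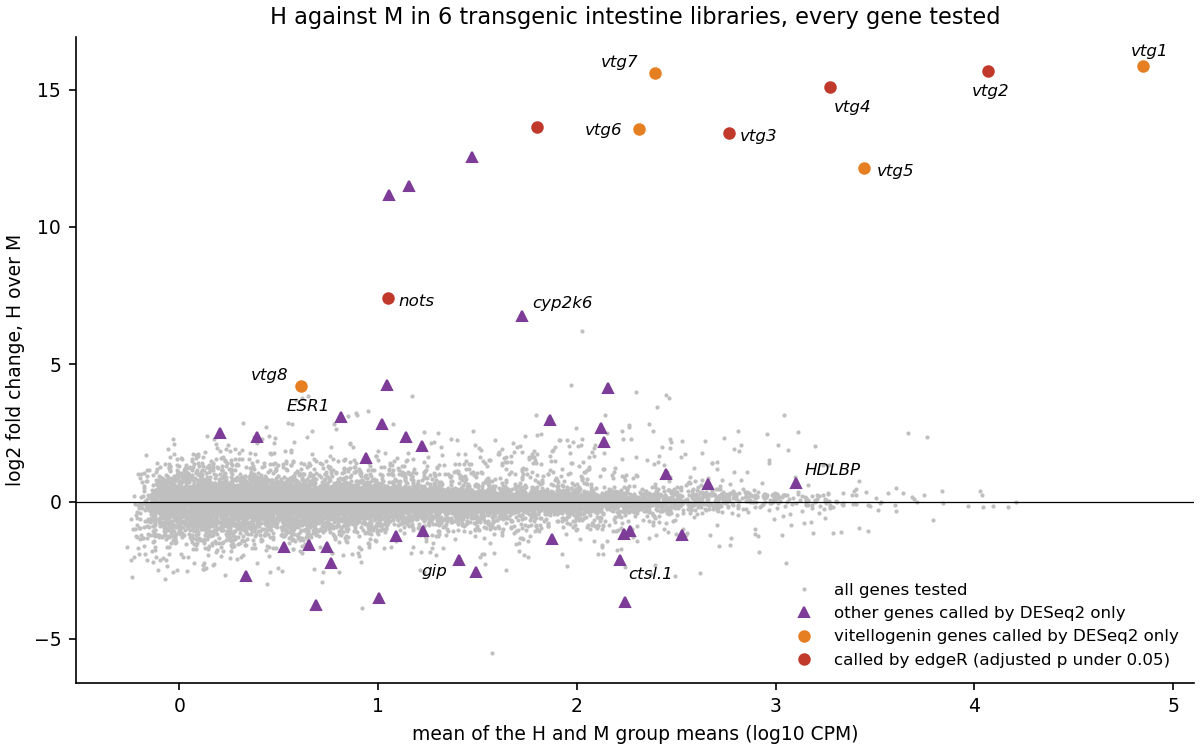
Log2 fold change of H over M (y axis) against the mean of the H and M group means in log10 CPM (x axis) for every gene tested, 3 H and 3 M transgenic libraries. Red circles mark the 5 genes called by edgeR, orange circles the vitellogenin genes and purple triangles the other genes called by DESeq2 alone; the vitellogenin genes other than vtg8 lie near the top. Fitted fold changes of genes with 0 counts in M, such as vtg7, depend on the prior count and are no bounds.

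vtg1, the most abundant of the 8 vitellogenin genes in the table, had 1872730, 676971 and 2468767 counts in H 13, 14 and 16, against 4, 91 and 3 counts in M 9, 10 and 11. Per length these were 31744, 12494 and 38127 FPKM in H and 0.0709, 1.55 and 0.0544 FPKM in M. The groups did not overlap. Its log2 fold change of 15.85 (SE 2.21) did not pass edgeR's quasi-likelihood test (adjusted p = 0.315), while DESeq2 called it. In vtg2 the counts were 345346, 139079 and 343455 in H and 2, 15 and 1 in M, and its log2 fold change was 15.69 (SE 1.36, edgeR adjusted p = 0.0451). vtg4 had 46189, 32153 and 52035 counts in H and 1, 3 and 0 in M, a log2 fold change of 15.10 (SE 0.82, edgeR adjusted p = 0.00521). For vtg3, the one member whose row lies apart from the others in the table, the counts were 14870, 8573 and 17474 in H and 0, 4 and 0 in M. Its log2 fold change was 13.41 (SE 1.03, edgeR adjusted p = 0.0249). In each of these 3 genes, too, every H library lay above every M library. Near-identical vitellogenin copies can share reads, so the split of counts among them is uncertain.

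The other 4 members were also higher in every H library than in any M library, but did not pass edgeR's test. vtg5 had 54672, 62118 and 75498 counts in H and 1, 10 and 37 in M (adjusted p = 0.112). vtg6 had 2013, 9285 and 2039 counts in H against 0, 1 and 0 in M, a ratio of 15935 with an exact 95% counting interval of 2860 to 629460 (adjusted p = 0.0776). vtg7 had 3418, 8864 and 4171 counts in H and 0 in every M library, which makes it at least 6553-fold higher, with 3 counts taken as the floor for the summed M libraries (adjusted p = 0.104). vtg8 was the faintest, with 69, 97 and 102 counts in H and 4, 9 and 4 in M (log2 fold change 4.21, adjusted p = 0.0776). All 8 genes were called by DESeq2. The median log2 fold change of the 8 was 14.33, or 13.48 with vtg7 set at its bound, beside a median of 0.03 over all genes tested. Intervals and bounds cover counting error only.

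All 8 genes together took 18.2%, 7.95% and 21.0% of all counts in H 13, 14 and 16. In M 9, 10 and 11 they had 12, 133 and 45 counts in all. The make-up of the family also differed among the H libraries. By FPKM, vtg1 made up 80.8% and 83.9% of the vitellogenin signal in H 13 and H 16 and 72.7% in H 14. vtg6 made up 0.0906% and 0.0722% in H 13 and H 16, against 1.04% in H 14, and vtg7 0.161% and 0.155%, against 1.04%. vtg1, vtg2, vtg3 and vtg4 were lowest in H 14, and vtg6 and vtg7 were highest there. A wild-type H library, replicate 8, had a make-up further along the same order, with 60.0% vtg1, 5.66% vtg6 and 4.62% vtg7.

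**Figure D2:**
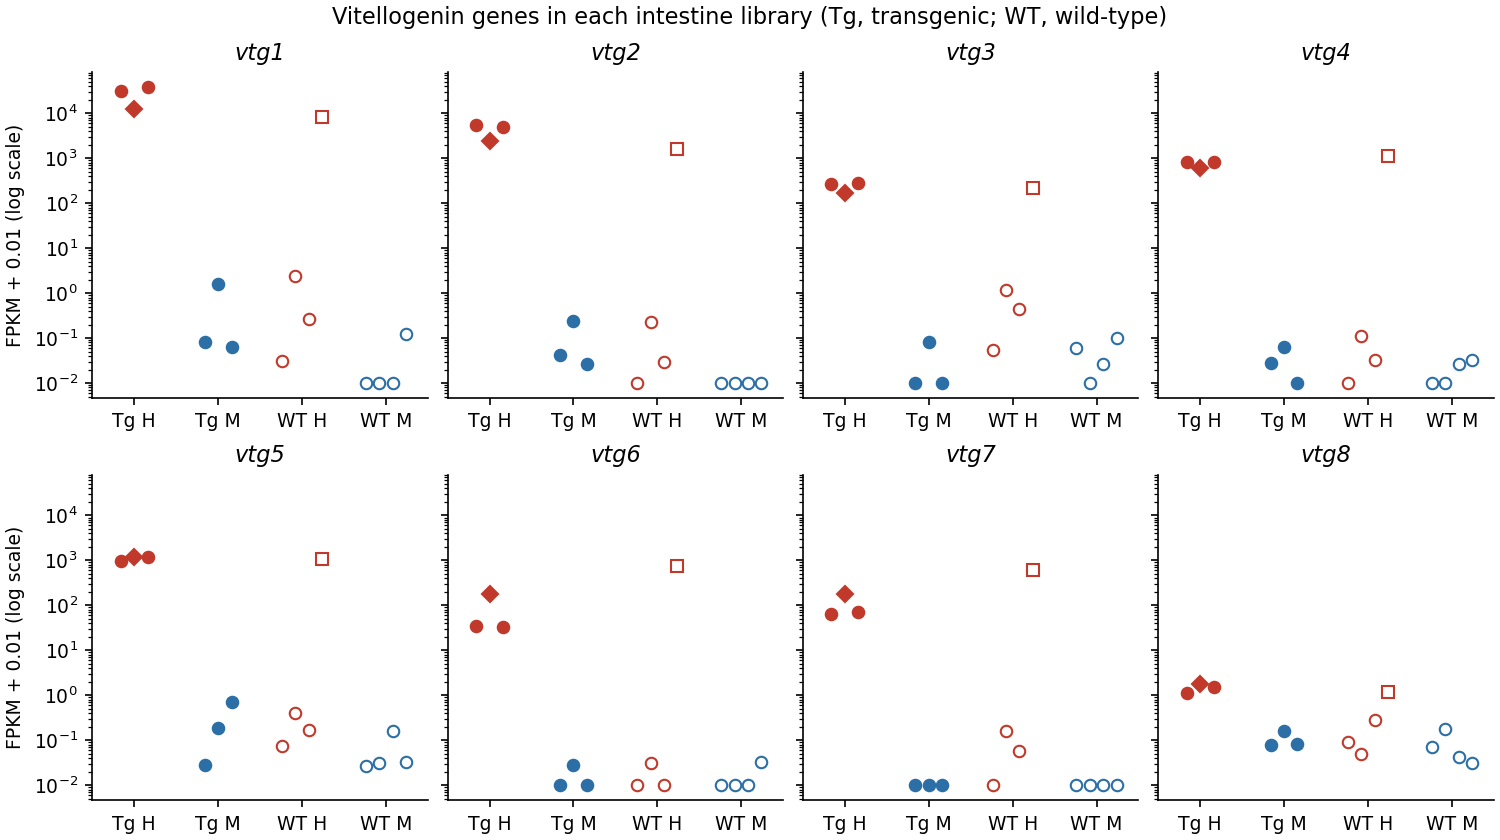
FPKM + 0.01 on a log axis for each vitellogenin gene, one point per library, in transgenic H, transgenic M, wild-type H and wild-type M intestine; the diamond is transgenic H replicate 14 and the square wild-type H replicate 8. Points at the bottom edge are libraries with 0 counts. The 3 transgenic H libraries and 1 of the 4 wild-type H libraries stand far above all others.

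All of the vitellogenin genes except vtg3 stand close together in the deposited table, and so do several further genes that were high in H. ENSDARG00000093425, between vtg4 and vtg6, had 1490, 1132 and 1787 counts in H and 0 in each M library, at least 1756-fold higher (edgeR adjusted p = 0.00521). ENSDARG00000111503, the row before vtg1, had 1016 counts over the H libraries and 0 over the M libraries, at least 405-fold higher (adjusted p = 0.156). fam20cl, a relative of the kinase that phosphorylates secreted proteins, follows vtg8 after 2 rows with at most 12 counts per group. It had 606, 208 and 1341 counts in H and 0 in M, at least 858-fold higher (adjusted p = 0.430). SSX2IP (ENSDARG00000061602), the row before ENSDARG00000111503, had 97 counts in H and 20 in M. Whether counting used strand was not stated in the labels or processing notes, so reads of overlapping or antisense transcripts cannot be told apart, and the unnamed genes of this stretch are uncertain for that reason. The vitellogenins, ENSDARG00000111503, fam20cl and SSX2IP (ENSDARG00000061602) were all called by DESeq2. ENSDARG00000103451, whose row lies elsewhere, had 784 counts over the H libraries and 0 over the M libraries, at least 312-fold higher (adjusted p = 0.112).

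nots held its call under every fit that left out 1 library, the one gene to do so. It had 25.1, 18.7 and 23.4 CPM in H 13, 14 and 16, against 0.0678, 0.218 and 0.0779 CPM in M 9, 10 and 11. Its log2 fold change was 7.42 (SE 0.37), with an edgeR adjusted p of 0.00521 in the full fit and 0.00343 to 0.0457 over the 6 fits. The call of vtg4 held in 5 of the 6 fits, that of ENSDARG00000093425 in 4, and those of vtg3 and vtg2 in 2 each.

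Further genes were called higher by DESeq2 alone, and those described here were chosen after their values were seen. cyp2k6, a cytochrome P450, had 72.7, 152 and 88.9 CPM in H and 0.339, 2.18 and 0.390 in M (log2 fold change 6.74, edgeR adjusted p = 0.140). ESR1, the estrogen receptor alpha that drives vitellogenin genes in fish liver, had 4.58, 11.9 and 18.3 CPM in H and 1.29, 0.944 and 1.87 in M. Its log2 fold change was 3.08 (SE 0.56), with an adjusted p of 0.933 in edgeR and 0.000166 in DESeq2. H libraries lay above M libraries in both genes, and H 14 was not the lowest H library in either. FAM20A, the pseudokinase partner of FAM20C, had 26, 13.7 and 29.7 CPM in H and 5.77, 3.34 and 4.36 in M.

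HDLBP, or vigilin, an RNA-binding protein known in Xenopus to bind vitellogenin mRNA, averaged 1553 ± 35.3 CPM in H and 977 ± 45.5 CPM in M (SD, n = 3 each). Its log2 fold change was 0.67 (edgeR adjusted p = 0.999, DESeq2 adjusted p = 0.000229). DDX21, a nucleolar RNA helicase, averaged 373 ± 13.3 CPM in H and 188 ± 39.3 CPM in M. PKLR, the pyruvate kinase of liver and red cells, averaged 559 ± 18.3 CPM in H and 359 ± 35.9 CPM in M. The reticulocalbin gene rcn3 had 10.4, 14.9 and 29.8 CPM in H and 0.95, 5.08 and 1.79 in M. In all 4, H and M did not overlap and H 14 lay with the other H libraries. A second pattern was seen in amy2al1, phf20l1, TG and ENSDARG00000097504, also among the 29. phf20l1 had 337, 34.9 and 316 CPM in H and 37.3, 33.1 and 36.9 in M, so that H 14 lay at the level of the M libraries. The same held for the amylase-like gene amy2al1, with 1945, 281 and 2433 counts in H and 204, 373 and 108 in M.

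Genes of liver plasma proteins moved in part with the vitellogenins. All 63 tested members of the liver list had a positive log2 fold change, with a median of 1.4, but none passed edgeR's test. Of the 63, 0 separated the H from the M libraries, beside 4.03% of all genes with H above M and 4.72% with H below. tfa, which codes for transferrin, had 14163, 1124 and 13666 CPM in H 13, 14 and 16, against 1525, 3324 and 778 CPM in M 9, 10 and 11. The complement gene c3a.1 had 11889, 526 and 11232 CPM in H and 1049, 2840 and 262 in M. The hepatocyte marker fabp10a had 1302, 191 and 1052 CPM in H and 412, 936 and 109 in M. In all 3 genes H 13 and H 16 were highest, while H 14 was lower than M 10 and lay within the range of the M libraries. The 2 members with the smallest p were amy2al1, which codes for no plasma protein, and the haptoglobin gene hp, with 653, 6.54 and 912 CPM in H and 17.0, 74.2 and 15.7 in M. Without H 14 the median of the list was 1.92, and 59 of the 63 members were positive. In that fit 44 members were higher and 1 lower at an unadjusted p under 0.05, beside 912 and 852 of all 16765 genes. By adjusted p, 0 members passed there.

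The summed liver list took 7.15%, 2.81% and 6.39% of counts in H and 2.35%, 4.17% and 1.56% in M. H 14 held less of it than M 10, and the least among the H libraries. The vitellogenin genes took 18.2%, 7.95% and 21.0% of counts in H 13, 14 and 16, so H 14 was the lowest H library there too. They had 937140 counts in H 14 and 133 in M 10. The lipoprotein gene apobb.1, which intestine and liver both use, was highest in H 14 with 21251 CPM, against 7968 and 6879 CPM in H 13 and H 16 and 7213 to 12539 CPM in M. The part of liver transcripts in the vitellogenin counts, and in the higher counts of H 13 and H 16, was not tested.

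Genes of the exocrine pancreas were lower in H. All 31 tested members had a negative log2 fold change, with a median of -1.06, and in 16 of the 31 all H libraries lay below all M libraries, beside 4.72% of all genes. None passed edgeR's or DESeq2's test. The trypsin gene prss1 had 2002, 242 and 1820 CPM in H and 2865, 2440 and 3449 in M. CEL (ENSDARG00000017490), a bile salt-activated lipase, had 432, 81.5 and 369 CPM in H and 1105, 870 and 681 in M (log2 fold change -1.59). The astacin-like protease gene c6ast4 had a log2 fold change of -1.36. H 14 was the lowest library in each of prss1, CEL (ENSDARG00000017490) and c6ast4, and without it the list median was -0.59.

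**Figure D3:**
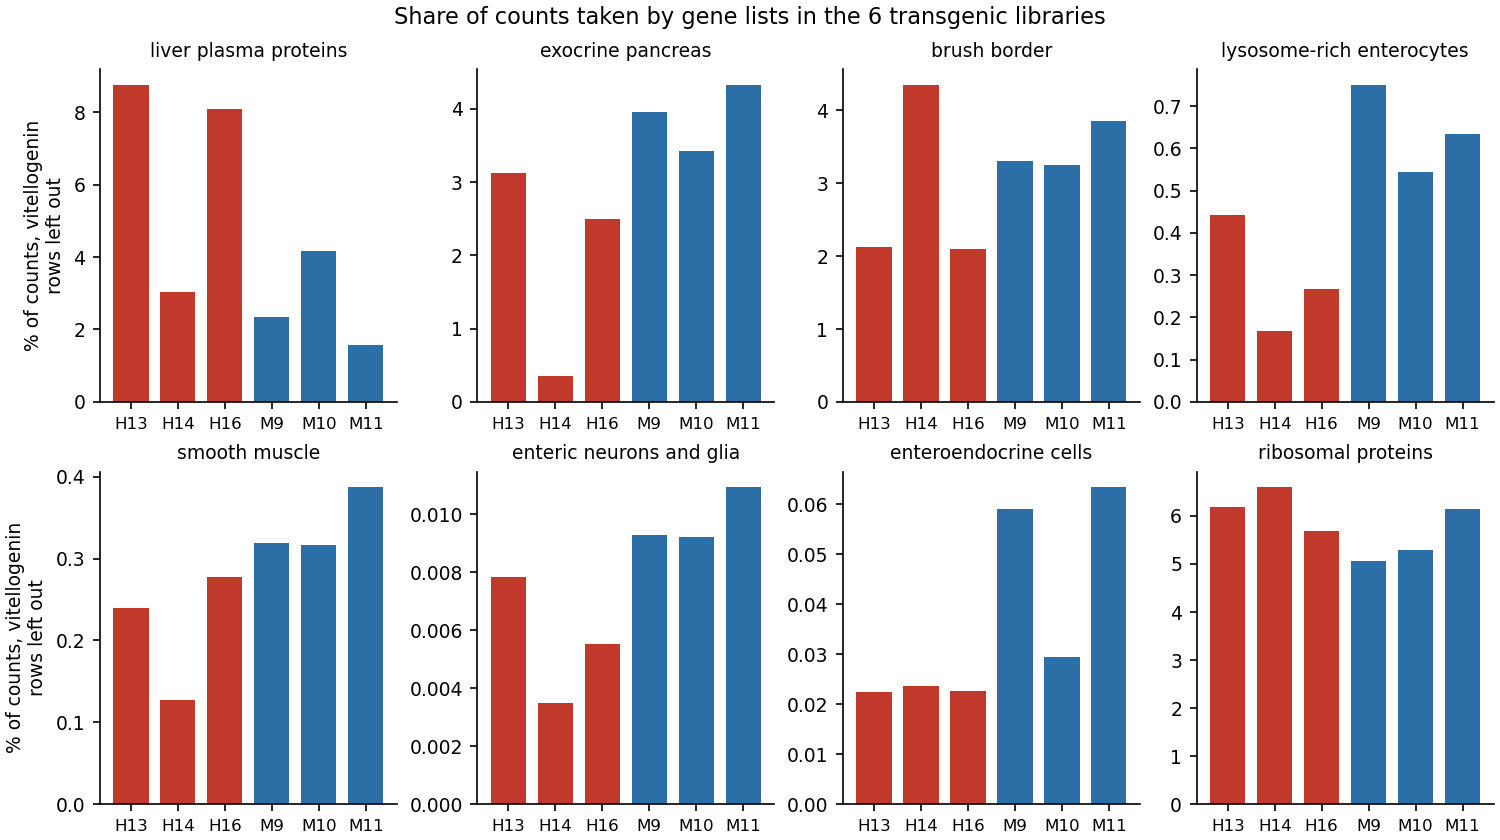
Percent of counts taken by 8 gene lists in each transgenic library, with vitellogenin rows left out of the total; H libraries are red and M libraries blue. Smooth muscle, enteric neurons, enteroendocrine cells and lysosome-rich enterocytes are lower in all 3 H libraries than in any M library. Liver plasma proteins are high in H 13 and H 16 but not in H 14.

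Transcripts of the gut wall were lower in H libraries. In 14 of 23 smooth muscle genes and 13 of 21 genes of enteric neurons and glia, every H library lay below every M library, beside 4.72% of all genes. The median log2 fold change was -0.73 for muscle, with 21 members negative, and -1.29 for neurons and glia, with 20 negative. At an unadjusted p under 0.05, 13 muscle and 11 neuronal genes were lower in H, beside 2.42% of all genes, and 0 higher, beside 1.55%. None passed edgeR's adjusted test, and DESeq2 called synpo2b and STMN2 (ENSDARG00000033234). acta2, the smooth muscle actin, had 333, 154 and 357 CPM in H and 540, 628 and 802 in M. MYH11 (ENSDARG00000009782), a smooth muscle myosin heavy chain, had 194, 135 and 253 CPM in H and 267, 368 and 331 in M. The other MYH11 entry, MYH11 (ENSDARG00000100972), did not share this, with a log2 fold change of 0.08. It and TAGLN (ENSDARG00000033466), at 0.09, were the 2 positive members, both with overlapping groups. synpo2b, which codes for an actin-binding protein, averaged 7.18 ± 1.34 CPM in H and 17.3 ± 2.57 CPM in M (log2 fold change -1.26, SE 0.21). LMOD1 (ENSDARG00000056111), a leiomodin that nucleates actin in smooth muscle, had a log2 fold change of -1.07.

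Among neuronal genes, NOS1, the nitric oxide synthase of inhibitory motor neurons, had 3.89, 1.73 and 1.66 CPM in H and 4.88, 6.68 and 7.64 in M. PHOX2A, a transcription factor of autonomic neurons, had a log2 fold change of -1.94 and the serotonin transporter gene slc6a4b one of -2.54. SNAP25 (ENSDARG00000020609), a synaptic membrane protein, had 2.25, 1.64 and 1.27 CPM in H and 3.80, 4.57 and 4.21 in M. STMN2 (ENSDARG00000033234), a microtubule regulator of neurons, had 1.04, 0.0962 and 0.554 CPM in H and 2.71, 3.63 and 4.99 in M. These are low levels, yet H and M did not overlap in any of the 5. UCHL1 went the other way, with 23.7, 5.49 and 4.59 CPM in H and 4.41, 5.37 and 8.88 in M, and its sign rests on H 13.

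H 14 was the lowest H library for most of these genes. Without it the medians were -0.52 for smooth muscle and -0.99 for neurons and glia. In that fit 11 muscle and 12 neuronal genes were lower at an unadjusted p under 0.05, beside 852 of all 16765 genes. As a share of counts that leaves out the vitellogenin rows, smooth muscle genes took 0.239%, 0.127% and 0.277% in H 13, 14 and 16 and 0.320%, 0.316% and 0.387% in M 9, 10 and 11. CACNA1B (ENSDARG00000021735), a presynaptic calcium channel outside the list, was among the 17 genes that DESeq2 called lower, with 1.3, 1.92 and 1.66 CPM in H and 4.95, 4.72 and 5.61 in M.

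**Figure D4:**
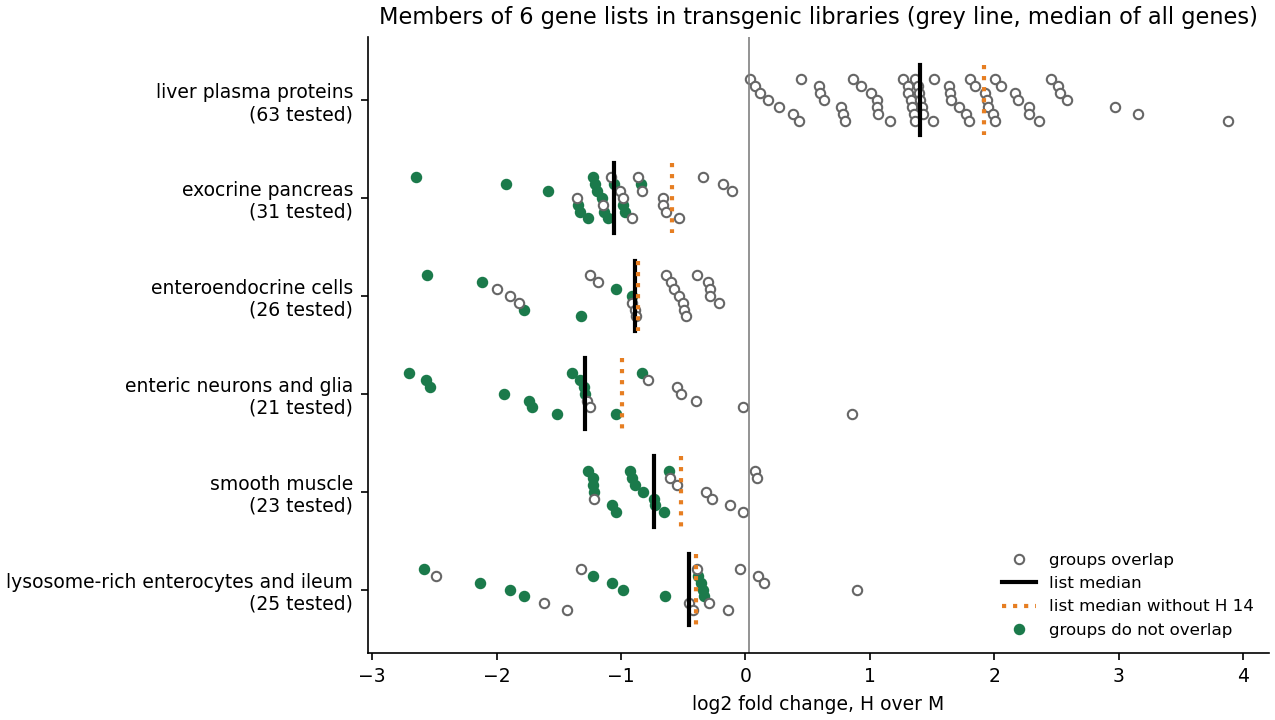
Log2 fold change of H over M for each tested member of 6 gene lists; filled points are members whose H and M libraries do not overlap, open points members whose libraries overlap, black bars the list medians and dotted bars the medians without H replicate 14. The groups do not overlap in 0 liver, 14 smooth muscle and 13 neuronal genes, all of these lower in H. Among all genes tested, 4.03% have all H libraries above and 4.72% all H libraries below the M libraries.

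Genes of the enteroendocrine cell list, hormone genes among them, were lower in H as well. All 26 tested members had a negative log2 fold change, with a median of -0.89, and the median was -0.87 without H 14. In 6 of them all H libraries lay below all M libraries, beside 4.72% of all genes, and 7 were lower at an unadjusted p under 0.05, beside 2.42%. gip, the incretin gene, had 110, 105 and 114 counts in H and 988, 353 and 404 in M. Its log2 fold change was -2.12 (SE 0.38), with an adjusted p of 0.899 in edgeR and 0.000631 in DESeq2. ghrl, which codes for the hunger hormone ghrelin, had 7.17, 11.4 and 8.47 CPM in H and 104, 23.0 and 32.4 in M (log2 fold change -2.56, DESeq2 adjusted p = 0.00991). In both genes every H library lay below every M library, and M 9 was the highest. The satiety hormone gene CCK had 1.04, 1.06 and 0.158 CPM in H and 1.97, 3.27 and 2.49 in M. The granin gene scg2b and the prohormone convertase gene PCSK1 had log2 fold changes of -1.04 and -0.91. GCG and gcga, the proglucagon genes, had log2 fold changes of -1.89 and -1.25 with overlapping groups. The 10 tested members of the endocrine pancreas list, which shares genes with this one, were all negative with a median of -0.81 (-1.14 without H 14). With vitellogenin rows left out of the total, the summed enteroendocrine list took 0.0223%, 0.0236% and 0.0226% of counts in H 13, 14 and 16. In M 9, 10 and 11 it took 0.0590%, 0.0295% and 0.0633%.

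Lysosomal and ileal genes formed a further group that was low in H. Of 25 tested members of the list for lysosome-rich enterocytes, 22 were negative with a median of -0.45, 12 separated H below M, beside 4.72% of all genes, and DESeq2 called 3 lower, beside 0.102%. These were the cathepsin genes ctsl.1, CTSZ and CTSH. ctsl.1 had 88.9, 38.7 and 55.4 CPM in H and 281, 176 and 348 in M (log2 fold change -2.14, SE 0.39, edgeR adjusted p = 0.933). CTSZ averaged 202 ± 36.3 CPM in H and 471 ± 90.5 CPM in M, and CTSH 119 ± 23.8 CPM in H and 250 ± 24.5 CPM in M. The legumain gene LGMN had 776, 407 and 408 CPM in H and 1144, 922 and 1076 in M. In these 4 genes the groups did not overlap and H 14 did not stand apart from H 16. CUBN and FABP6 differed from these in that H 14 had almost none. CUBN, which codes for the endocytic receptor cubilin, had 602, 1.44 and 158 CPM in H and 1124, 723 and 498 in M. FABP6, the ileal bile acid-binding protein, had 226, 2.69 and 128 CPM in H and 511, 383 and 1250 in M. MAN2B1 and CPVL, lysosomal enzyme genes outside the list, were called lower by DESeq2. MAN2B1 had 142, 87.9 and 86.3 CPM in H and 273, 213 and 237 in M.

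Other absorptive genes varied with H 14 more than with the letter. The brush-border list had 13 of 33 members positive and a median of -0.07, and without H 14 the median was -0.59 with 6 of 34 positive. Its members with the smallest p were the peptidase gene naaladl1, with 94.3, 62.0 and 41.6 CPM in H and 134, 98.9 and 141 in M, and the glutamyltransferase gene ggt1a, with a log2 fold change of 3.68. In the lipid absorption list 28 of 42 were positive (median 0.09), but without H 14 the median was -0.70, with 10 of 42 positive. In that fit 19 of the 42 were lower at an unadjusted p under 0.05, beside 852 of all 16765 genes. apobb.2 had a log2 fold change of 4.23 and the cholesterol exporter gene ABCA1 one of 0.62, both with overlapping groups. Of 20 apical amino acid and peptide carriers 17 were negative, with a median of -0.28 that became -0.91 without H 14. SLC1A4, a neutral amino acid carrier, had 2.59, 1.64 and 2.46 CPM in H and 8.34, 6.82 and 5.07 in M and was called by DESeq2 (log2 fold change -1.59). SLC6A18 had 23.1, 3.46 and 8.63 CPM in H and 62.4, 38.2 and 70.8 in M. Among the basolateral and general carriers, 16 of 27 were negative. The glutamine carrier gene SLC38A3 (ENSDARG00000027065), called by DESeq2, had a log2 fold change of -3.75 and SLC3A2 one of -1.96.

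Medians of the metabolic lists lay between -0.17 and 0.41 in the full fit. Cholesterol synthesis had 29 of 33 members positive with a median of 0.41. It had none at an unadjusted p under 0.05, beside 1.55% of all genes higher and 2.42% lower. Its median was negative in at least 1 fit that left out a library, with a range of -0.25 to 0.78. The value of 0.78 came from the fit without H 14. There 9 of 33 members were higher and 0 lower at an unadjusted p under 0.05, beside 912 and 852 of all 16765 genes. MVK, mevalonate kinase, had a log2 fold change of 1.01 and NPC2 (ENSDARG00000090912), a lysosomal cholesterol carrier, one of -0.38. Fatty acid oxidation and gluconeogenesis had 28 of 38 members negative (median -0.17), and 8 separated H below M, beside 4.72% of all genes. The dehydrogenase gene ACADL had 77.0, 84.6 and 74.2 CPM in H and 106, 101 and 99.7 in M. CPT2 had a log2 fold change of -0.34. In fatty acid synthesis (22 tested, median 0.05), ME1, malic enzyme, had a log2 fold change of -2.55 and SCD one of -0.81. The fatty acid transporter gene SLC27A6, called lower by DESeq2, had 3.28, 0.577 and 1.03 CPM in H and 17.3, 33.1 and 5.14 in M. Glycolysis and sugar carriers had 30 of 42 members positive with a median of 0.31, and PFKL (ENSDARG00000099755) had a log2 fold change of 0.76. Among 45 cytochromes P450 of families 1 to 4 the median was 0.04 (-0.20 without H 14), with 23 positive, and CYP2U1 had a log2 fold change of 0.96. The conjugation list had 26 of 36 negative (median -0.09, or -0.38 without H 14), with ugt5a1 at -0.67 and gstt1a at 1.61. The groups overlapped in both genes. Bile acid genes had a median of 0.08 over 22 (-0.11 without H 14), with SLC10A4, whose groups overlapped, at 2.35. For metal handling the median was 0.20 over 27, with selenop2 at 2.25.

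In the lists of protein synthesis and growth no member passed edgeR's test. Of 73 cytosolic ribosomal protein genes 72 had a positive log2 fold change, but the median was 0.23. Of these genes 0 had an unadjusted p under 0.05, beside 1.55% of all genes higher and 2.42% lower. Without H 14 the median was 0.10, with 62 of 73 positive. RPL5 (ENSDARG00000020197) had a log2 fold change of 0.36. ER chaperone and unfolded protein response genes had 45 of 60 positive with a median of 0.14. The translocon gene SEC61A1 (ENSDARG00000021669) had 527, 355 and 494 CPM in H and 281, 301 and 276 in M, a log2 fold change of 0.68, and atf4b one of -0.48. Cell cycle genes had 33 of 47 positive (median 0.36, or 0.73 without H 14). At an unadjusted p under 0.05, 0 were higher and 1 lower. Without H 14, 40 of 47 were positive. In that fit 25 were higher and 1 lower at an unadjusted p under 0.05, beside 912 and 852 of all 16765 genes, and 0 passed by adjusted p. CCND1 had a log2 fold change of 0.60 and STMN1 (ENSDARG00000033655) one of -1.68. Of 42 proteasome genes 31 were positive (median 0.08), with PSMD11 (ENSDARG00000005134) at 0.27 and PSMB5 at -0.54. The respiratory chain list had a median of -0.02 over 73, with cox8a at -0.49 and SDHD (ENSDARG00000030139) at -0.26. In the growth hormone and IGF list (25 tested, median 0.07), igf2b had a log2 fold change of 0.67. The binding protein gene IGFBP5 (ENSDARG00000025348) had 10.7, 9.62 and 11.8 CPM in H and 20.7, 29.5 and 18.2 in M and was called by DESeq2. Circadian clock genes had 17 of 32 positive with a median of 0.01 (-0.16 without H 14). The members with the smallest p, nr1d2a and nfil3-6, had log2 fold changes of -2.29 and -2.36, with M 9 below all H libraries in nr1d2a.

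Immune and barrier lists lay near the median of all genes. The medians were 0.04 for 35 interferon response genes, 0.10 for 25 lymphocyte genes, 0.00 (0.16 without H 14) for 39 neutrophil and macrophage genes and -0.03 (0.22 without H 14) for 38 cytokine and acute phase genes. isg15 had a log2 fold change of -0.72, mxc one of -0.79, foxp3a one of 0.54, CCR9 (ENSDARG00000055186) one of -1.04, csf1rb one of -0.59 and ccl38.6 one of -0.82. MFAP4 (ENSDARG00000090557) had 181, 10.8 and 142 CPM in H and 15.0, 28.7 and 17.5 in M. The class II histocompatibility gene mhc2dhb, called lower by DESeq2, had 22.3, 45.3 and 8.79 CPM in H and 23.1, 490 and 457 in M, so that M 9 lay with the H libraries. Claudins had 6 of 16 positive (median -0.07) with none at an unadjusted p under 0.05, beside 1.55% of all genes higher and 2.42% lower. CLDN2 had a log2 fold change of 1.49 and cldn3d one of -0.49, both with overlapping groups. The other junction genes had a median of 0.03 over 51, with jam2a at -0.87 and JAM3 (ENSDARG00000061794) at -0.61. Ion transport genes had a median of -0.01 over 37 (-0.21 without H 14), with SLC8A1 (ENSDARG00000013422) at -1.21 and KCNE4 at -1.02. Goblet cell genes had a median of 0.24 over 10 (0.41 without H 14), with st6galnac1.1 at -0.39 and GALNT12 at 0.37.

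Of the 10 aquaporins, aqp12, known from pancreatic acinar cells, was called by DESeq2. It had 317, 75.9 and 282 CPM in H and 47.9, 59.7 and 40.9 in M, opposite in direction to the exocrine pancreas list. The aquaporin gene aqp10a had a log2 fold change of -1.07. In the remaining lists 0 members were called by either test. Extracellular matrix genes had 28 of 36 negative (median -0.36, or -0.16 without H 14), with PDGFRA at -0.76 and COL12A1 (ENSDARG00000019601) at -0.93. Adipocyte genes had a median of -0.30 over 9, with CEBPA at -1.64 and PCK1, which also belongs to gluconeogenesis, at -2.23. The groups overlapped in CEBPA and PCK1. Erythrocyte genes had a median of -0.17 over 15 (-0.01 without H 14), with TMOD4 at -0.72. Heat shock and redox genes had a median of 0.04 over 40, with HSPA8 (ENSDARG00000037403) at -0.82 and gpx3 at 0.94. Chitinases and lectins had a median of -0.18 over 21, with PGLYRP2 at 2.53 and chia.4 at 3.77, both with overlapping groups. Skeletal muscle genes had a median of -0.80 over 14 (-0.31 without H 14), with ACTA1 (ENSDARG00000055618) at -0.98 and ACTA1 (ENSDARG00000036371) at -1.0.

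Sex steroid genes other than ESR1 showed no common direction. The list had 26 tested members, 15 of them positive, with a median of 0.04. The estrogen receptor beta genes ESR2 (ENSDARG00000016454) and ESR2 (ENSDARG00000034181) had log2 fold changes of 0.31 and 1.17, and the second had 58.4, 123 and 38.9 CPM in H and 45.9, 20.5 and 31.2 in M. HSD17B3, which makes testosterone, had 0.95, 0.866 and 0.792 CPM in H and 5.29, 3.77 and 0.935 in M, and STAR, which feeds cholesterol into steroid synthesis, had a log2 fold change of -1.83. Low counts kept several steroid synthesis genes out of the test. CYP17A1 had 44, 1 and 0 counts in H and 0, 3 and 1 in M, and CYP11A1 (ENSDARG00000002347) had 73, 0 and 1 in H and 1, 0 and 0 in M, so that these transcripts came from H 13. With vitellogenin rows left out of the total, the ovary and oocyte list took 0.0771% of counts in H 13. It took 0.00347% and 0.0109% in H 14 and H 16, and 0.0102% to 0.0119% in M. The vitellogenins had 2963541 counts in H 16 and 2339307 in H 13. Of the ovary list 4 of 43 genes passed the filter on low counts, among them CCNB1 and RBPMS2 (ENSDARG00000045930) with log2 fold changes of 1.35 and -0.85, and of the testis list 2 of 21 passed.

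The receptors on which agouti signalling protein acts were at or near 0 counts in these libraries. Of 21 melanocortin and agouti genes in the table, 8 passed the filter on low counts, and their median log2 fold change was -0.05 (-0.27 without H 14). None was called by either test. The processing enzyme genes PCSK1, PCSK2 and CPE, which also serve enteroendocrine cells, had log2 fold changes of -0.91, -0.80 and -0.81. PCSK1 had 2.85, 2.60 and 2.77 CPM in H and 4.14, 4.06 and 7.33 in M. ATRNL1 (ENSDARG00000006420) and ATRNL1 (ENSDARG00000077188), relatives of attractin, had 0.20 and 0.68. No melanocortin receptor gene exceeded 7 counts summed over a group. asip2b had 7, 6 and 8 counts in H and 6, 21 and 13 in M.

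The same contrast was also fitted in wild-type intestine. The edgeR test called 0 of 16608 genes between wild-type H and M (0.0%), and the test of the difference between the genotypes called 0 of 18619 (0.0%). At an unadjusted p under 0.05, 1825 genes differed in wild-type fish and 1285 in the test of the difference (6.9%), while DESeq2 called 335 and 24. Wild-type H libraries 6 and 7 stood apart, since the ovary and oocyte list took 3.19% and 0.604% of counts in them, against at most 0.152% in the other wild-type libraries, and list medians without them are given in brackets. Vitellogenin genes took 6.18% of counts in wild-type H 8 and had 10, 217 and 55 counts in H 5, 6 and 7 and 8 to 13 counts in the wild-type M libraries. They did not pass the filter on low counts in the wild-type fit. nots had 1729 counts in wild-type H 8 and 0, 6 and 1 in H 5, 6 and 7. Vitellogenin genes and nots were thus high in 1 of 4 wild-type H libraries and in 3 of 3 transgenic H libraries, a difference that did not pass the test.

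List medians were set side by side for the genotypes. Neurons and glia had a median of -1.29 in transgenic libraries and 0.80 in wild-type libraries (0.72 without wild-type H 6 and 7). Of 25 members 15 had an unadjusted p under 0.05 in the test of the difference, beside 6.9% of all genes. That test included wild-type H 6 and 7, in which this list took 0.0721% and 0.0406% of counts. The list took at most 0.0112% in the other wild-type libraries. The medians in transgenic and wild-type libraries were 1.4 and -1.12 (-2.13 without wild-type H 6 and 7) for liver plasma proteins, and -1.06 and 0.78 (1.63) for exocrine pancreas. In the test of the difference 12 of 64 liver and 1 of 33 exocrine pancreas members had an unadjusted p under 0.05, beside 6.9% of all genes. For smooth muscle they were -0.73 and -0.18 (0.02). In the test of the difference 2 of 23 smooth muscle members had an unadjusted p under 0.05, beside 6.9% of all genes. For lysosome-rich enterocytes the medians were -0.45 and 0.05 (0.28), and for enteroendocrine cells -0.89 and 0.09 (0.06). In these lists 5 of 26 and 2 of 27 members had an unadjusted p under 0.05 in the test of the difference. Of the genes lower in transgenic H at an unadjusted p under 0.05, 376 were tested in wild-type fish and 129 (34.3%) were also lower there, or 98 of 390 (25.1%) without wild-type H 6 and 7. Of those higher in transgenic H, 113 of 228 (49.6%) were also higher in wild-type H. Without wild-type H 6 and 7 this was 106 of 233 (45.5%). Among all genes tested in both genotypes, 49.8% had the same sign, or 47.2% without those libraries. Wild-type H was higher in 8419 of 15940 of these genes, or in 7990 of 16292 without those libraries.

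**Figure D5:**
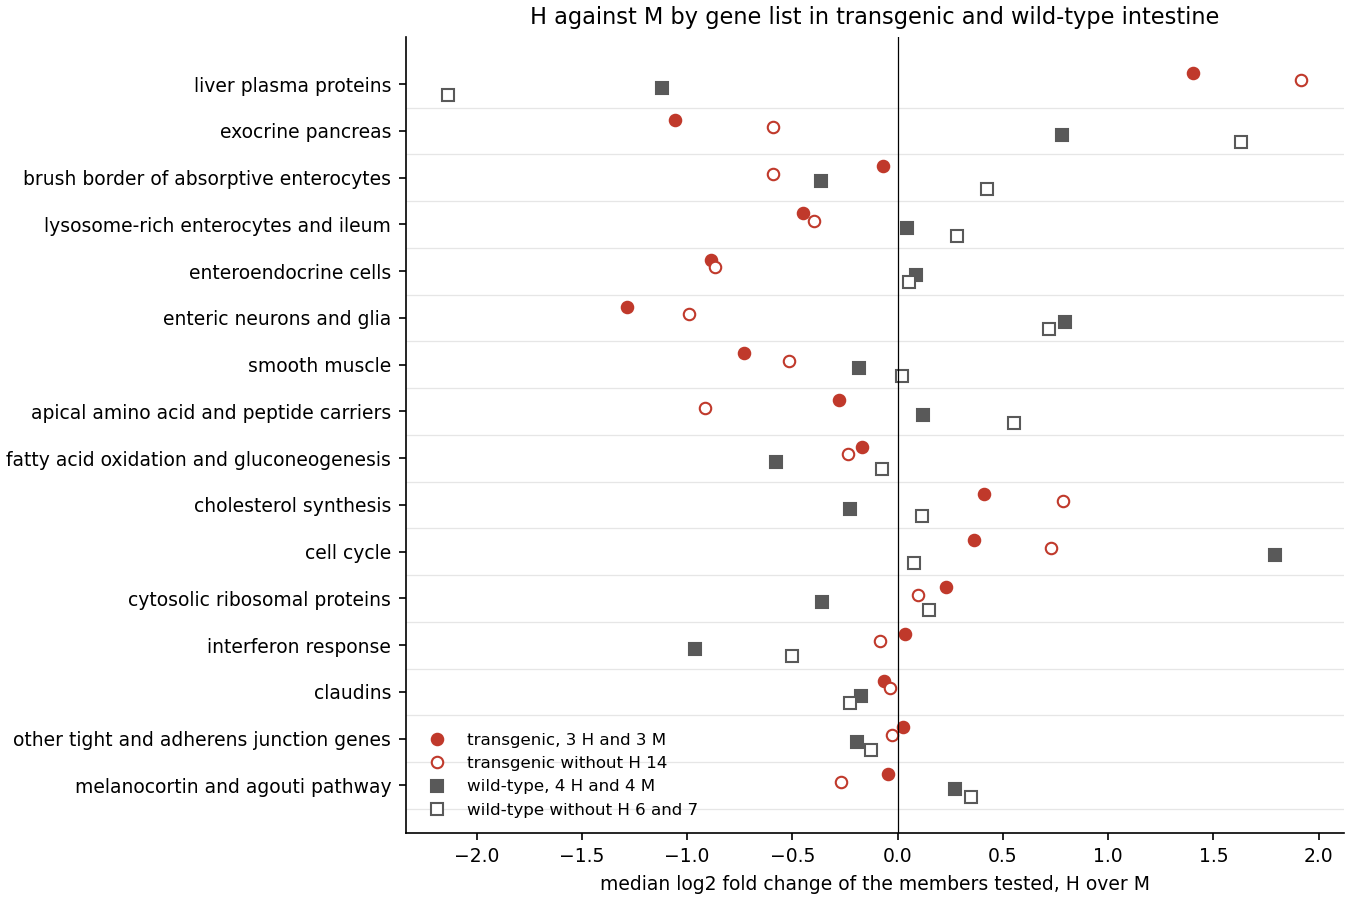
Median log2 fold change of H over M for 16 gene lists in transgenic libraries (circles, open without H replicate 14) and wild-type libraries (squares, open without H replicates 6 and 7). Liver, pancreas and neuronal medians lie on opposite sides of 0 in the 2 genotypes, while the edgeR test of the difference called 0 genes.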

How the data were processed

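Gene-level read counts were deposited by the authors as whole numbers, not normalized, for 32520 zebrafish Ensembl identifiers. Levels of different genes were compared by FPKM, also deposited by the authors. Trizol extraction and a stranded poly-A library kit are named per the labels' protocols. The tools were featureCounts 1.6.3, STAR 2.7.3a, edgeR and FastQC, per the submitters' processing notes, which also list the builds GRCz11, GRCm38.p6 and mm10 without a role. Symbols came from a supplied reference table, which gave one to 29201 identifiers, many in human-style capitals.

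Counts were tested with edgeR 4.0.16 in R 4.3.3 (filterByExpr by group, TMM scaling, glmQLFit and glmQLFTest) on the 6 transgenic libraries, with Benjamini-Hochberg adjustment over all genes tested. The 8 wild-type libraries and the difference between genotypes over all 14 libraries were fitted likewise. The SE was obtained from the F statistic, as the size of the log2 fold change over the root of F. CPM used TMM-scaled totals. TMM factors ranged from 0.8824 to 0.9066 in H and from 1.072 to 1.203 in M. Total counts per library ranged from 9847910 to 14091791. DESeq2 1.42.0, limma-voom (limma 3.58.1), other scalings and filters, and fits without each library served as alternatives. On simulated counts at these depths, the edgeR test called 1 of 50 genes changed 2-fold, 28 at 4-fold, 44 at 8-fold and 49 at 16-fold, with 7 false calls among 16388 genes. In the 6 transgenic libraries, 35 genes were at least 8-fold higher in H and 5 at least 8-fold higher in M. The groups did not overlap in 15 of the 35, beside 4.03% of all genes with H above M. They did not overlap in 3 of the 5, beside 4.72% with H below M. These genes were picked by fold change, which itself favours groups that do not overlap. The edgeR test called 5 genes there, and vtg1 was not among them. Whether the rates above hold for genes near 0 counts in M, or where H 14 stood apart, was not tested.

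Of 1675 names in 46 gene lists, 1527 were matched. The libraries compared and the lists were chosen with earlier results of these data known. The rule for named genes takes, each way, the 12 called genes of largest fold with a proper symbol, at least 5 CPM in the higher group and no overlap, and the 10 called genes of largest CPM difference. It adds up to 4 called members of a list or, where none is called, the 2 with the smallest p, and the vitellogenin, sex steroid and melanocortin genes, of which those of small change are given as counts and medians. Genes called by DESeq2 alone and further members of 6 lists were named after their values were seen. Some genes that the rule names are not reported here.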

Additional observations from a re-analysis of the deposited data

Results flagged for a closer look

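In wild-type H libraries, vitellogenin genes took 6.18% of counts in replicate 8, far from the other 3, which had 217 counts or fewer. Exocrine pancreas genes took 9.95% of counts in the same library, against 0.229% to 1.5% in the other 3. Among wild-type M libraries, exocrine pancreas genes took 4.68% of counts in replicate 3, against 0.251% to 0.938% in the other 3. Each was marked because 1 library lay far from the other 3 of its group by Dixon's criterion at the 95% level, which chance alone meets in some groups. Groups of 3 were not examined in this way.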

How the results depend on the processing

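The 5 calls in transgenic fish stayed 5 with DESeq2 size factors in edgeR and with a minimum 2-fold change. The count was 11 with no filter on low counts, 46 with DESeq2, 8 with limma-voom, 0 when all 14 libraries (327 at an unadjusted p under 0.05) or the 12 without wild-type H 6 and 7 (851) were fitted together, and 2 when vitellogenin rows were removed before scaling, since 3 of the calls are such rows, which leaves nots and ENSDARG00000093425. It was also 2 when liver, pancreas and egg rows were removed as well, an alternative chosen after seeing the data. Leaving out each library gave 2 to 11 calls, with 11 without H 14, 2 without H 13 or H 16 and 3 without M 9 or M 11. Among these calls, 1 without H 14 and 1 without M 9 were lower in H. The fit without H 14 is also the fit in which the genes at an unadjusted p under 0.05 numbered 1840 instead of 665. The 0 calls in wild-type fish became 335 with DESeq2 and ranged from 0 to 164 over fits that left out 1 library, with 164 without H 5. The 0 calls of the difference between genotypes became 24 with DESeq2. Of 2161 recomputed log2 fold changes of 146 single genes, 3 changed sign, each when 1 library was left out. Over those fits UCHL1 ranged from -0.30 (without H 13) to 1.24, apobb.1 from -0.32 (without H 14) to 0.67 and cldn3d from -0.75 to 0.0052 (without M 11). The median of all genes moved by less than 0.1 on the log2 scale under every scaling, and the medians of the list of neutrophils and macrophages (-0.01 to 0.00) and of the cytochromes P450 (-0.01 to 0.04) were the ones to change sign under another scaling. No paired analysis was possible because the groups compared share no replicate numbers. The cause of the other changes was not tested. On simulated counts the test rarely called 2-fold changes, and in the data some larger ones, such as that of vtg1, did not pass. Genes that did not pass may therefore still differ.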
